A study of Mus musculus with 8 samples.

Results

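The genes described here are 47 mouse genes of the lysosome and of the vacuolar proton pump (V-ATPase), chosen by symbol: 10 cathepsins and other peptidases, 9 glycosidases and sulfatases, 8 lipid enzymes and carriers, 7 membrane proteins and 13 proton pump subunits. A probe was available for 44 of them, out of 16593 genes with a probe on the array. Npc1, Cd68 and Atp6v0c had none and are not analysed here. Of the 44 genes, 42 passed the filter on dim signal and were tested among 9341 features, and Fuca1 and Atp6v0d2 were not above the background floor (an intensity of 200.1) on any array.

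Transcripts were measured on Illumina MouseRef-8 arrays in macrophages grown from the bone marrow of C57BL/6 mice, with 2 arrays per group. The 4 groups had received both interferon gamma (IFNγ) and opsonised sheep red blood cells (the combination), IFNγ alone at 10 ng/ml, opsonised cells alone at 10 per macrophage, or no stimulus, and each stimulus lasted 6 h. Opsonised cells carried IgG2a, an antibody class that Fcγ receptors bind, and the combination used the same doses. All groups shared the culture: 30% conditioned medium of L929 cells, which supplies the macrophage growth factor M-CSF, then 15% after replating on day 7, with stimulation on day 8. Nothing says that the 2 samples of a group came from separate mice or cultures, so the spread behind the p-values may be a technical one.

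Lysosomes are acidic compartments in which hydrolases break down proteins, glycans and lipids delivered by phagocytosis, endocytosis and autophagy. In macrophages they receive phagocytosed red cells, and their cysteine proteases also process antigens and the invariant chain for MHC class II presentation. The V-ATPase acidifies them: its soluble V1 sector hydrolyses ATP, and its membrane V0 sector carries protons. Many lysosomal genes have the palindromic CLEAR element, bound by the transcription factors TFEB and TFE3, near their start sites.

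Over all probes, the correlation was 0.992 to 0.994 between the 2 arrays of a group and 0.952 to 0.984 between groups. The IFNγ target Cxcl9 had intensities of 30374 and 29424 with the combination and 19795 and 20728 with IFNγ, against 179 and 167 in unstimulated cells, which is at least 149-fold and at least 101-fold higher. The IFNγ-inducible GTPase gene Gbp2 rose by 5.36 ± 0.10 on the log2 scale with IFNγ. Opsonised cells raised the heme oxygenase gene Hmox1 by 3.40 and the antioxidant gene Srxn1 by 3.07. All 6 macrophage markers with a probe lay above the floor on all 8 arrays; their summed intensity was 39535 to 39644 with the combination, 37689 to 39388 with IFNγ and 39303 to 41597 with opsonised cells, against 41972 to 42942 in unstimulated cells. Lyz2 (lysozyme) made up most of that sum, and single markers moved apart. Against unstimulated cells, the log2 change of the lipopolysaccharide co-receptor gene Cd14 was -0.93 with the combination and -1.29 with IFNγ, and that of the Fcγ receptor gene Fcgr1 was 1.44 with the combination, 2.25 with IFNγ and -0.57 with opsonised cells. The phagocytic receptor gene Mertk changed by 0.64 with the combination and by -0.51 with opsonised cells, and the part of these shifts in the results was not tested. Of the other cell types' lists, 0 of 5 dendritic cell, 0 of 3 erythroid, 0 of 2 B cell, 0 of 4 T and NK cell and 0 of 4 fibroblast markers did so on all 8 arrays. Of the neutrophil and osteoclast lists, 1 of 5 (Ltf) and 2 of 6 (Mmp9 and Ctsk, itself one of the 42 genes) did. Above the floor on no array were 3 of the 5 dendritic cell, 2 of the 3 erythroid and 1 of the 2 B cell markers. The same held for 2 of the 4 T and NK cell, 3 of the 4 fibroblast, 2 of the 6 osteoclast and 0 of the 5 neutrophil markers. The remaining markers lay above the floor on some arrays, and the part of such cells was not tested. Less RNA per cell and fewer cells of a type cannot be told apart in these bulk samples.

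Promoter windows, 250 bases before to 50 bases after a RefSeq start site, were available for 39 of the 47 genes (43 windows, GRCm38.p6). The CLEAR core TCACGTGA, a palindrome that contains the E-box CACGTG, stood in 7 member windows (16.3%), against 0.974% of all 32851 windows; these belonged to Atp6v0d1, Atp6v0e, Atp6v1a, Ctsa, Ctsd, Gla and Mcoln1. The E-box, within or outside the CLEAR core, stood in 13 member windows (30.2%), against 7.15% of all windows. Because many lysosomal genes are known to have the CLEAR element, these higher shares are no separate finding. The interferon-stimulated response core, GAAA and GAAA with any 2 bases between them on either strand, stood in 3 member windows (6.98%, of Atp6v1d, Ctss and Lamp1), against 3.44% of all windows. The palindromic STAT motif TTCNNNGAA, known as GAS, stood in 1 (2.33%, of Ctsc), against 8.30% of all windows. The antioxidant response core TGACNNNGC, on either strand, stood in 8 (18.6%), against 12.4% of all windows. Windows are shown for Ctsc, the member with the largest change, and for Ctss, with their interferon-related matches in capitals (first base at -236 and -21 from the start), and for Ctsa and Atp6v1a, as examples of the CLEAR core in capitals (first bases at -13 and +5 in Ctsa, in one of its 2 windows, and at -132 in Atp6v1a). They lie at chr7:88277835-88278134 (plus strand, Ctsc), chr3:95526536-95526835 (plus, Ctss), chr2:164833523-164833822 (plus, Ctsa) and chr16:44139210-44139509 (minus, Atp6v1a), each 5′ to 3′.
Ctsc: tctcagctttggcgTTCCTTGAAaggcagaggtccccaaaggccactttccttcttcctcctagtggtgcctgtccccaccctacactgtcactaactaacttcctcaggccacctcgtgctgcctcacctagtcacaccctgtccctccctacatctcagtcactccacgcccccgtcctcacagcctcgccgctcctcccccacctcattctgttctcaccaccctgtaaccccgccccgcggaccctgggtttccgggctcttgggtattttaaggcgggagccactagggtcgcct
Ctss: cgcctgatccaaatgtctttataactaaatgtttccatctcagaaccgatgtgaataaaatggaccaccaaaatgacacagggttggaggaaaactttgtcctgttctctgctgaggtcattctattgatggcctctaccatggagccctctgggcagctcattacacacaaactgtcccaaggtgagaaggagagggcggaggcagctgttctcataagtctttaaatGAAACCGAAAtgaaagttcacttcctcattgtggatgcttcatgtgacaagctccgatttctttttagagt
Ctsa: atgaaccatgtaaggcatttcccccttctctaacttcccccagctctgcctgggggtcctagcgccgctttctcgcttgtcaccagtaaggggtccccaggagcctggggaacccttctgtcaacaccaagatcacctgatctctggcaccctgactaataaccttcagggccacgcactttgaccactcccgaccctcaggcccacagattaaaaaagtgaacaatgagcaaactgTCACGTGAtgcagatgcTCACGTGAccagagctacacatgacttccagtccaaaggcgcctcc
Atp6v1a: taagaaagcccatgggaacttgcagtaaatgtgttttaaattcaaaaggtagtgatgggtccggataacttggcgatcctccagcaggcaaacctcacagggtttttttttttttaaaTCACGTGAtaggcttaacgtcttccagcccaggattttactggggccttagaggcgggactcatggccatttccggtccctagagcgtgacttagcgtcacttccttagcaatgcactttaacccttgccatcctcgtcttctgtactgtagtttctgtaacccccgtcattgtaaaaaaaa
A match is a run of letters, not a bound site, and no match says only that these letters are not in the window. The windows of Ppt1 and Lipa, whose transcripts changed most after those of Ctsc among the enzymes of the 47 genes, held none of these 5 motifs, and Atp6v1c1 had no window.

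With IFNγ alone, 11 of the 42 genes passed limma's moderated test at a Benjamini-Hochberg adjusted p under 0.05 over all features (26.2%, against 21.8% of all features): 3 rose (9.45% of all features did) and 8 fell (12.3%). With opsonised cells alone, 2 rose and none fell (4.76%, against 12.2% of all features, 6.07% higher and 6.17% lower); at an unadjusted p under 0.05, 5 were higher and 3 lower. With the combination, 5 rose and 5 fell relative to unstimulated cells (23.8%, against 35.1% of all features, 14.5% higher and 20.6% lower). The median log2 change of the 42 genes was -0.06 with the combination, -0.07 with IFNγ and 0.02 with opsonised cells, beside medians of -0.03, -0.04 and -0.01 over all features. In all, 17 genes changed in at least 1 of these comparisons, none in all 3, and 4 (Ctsc, Ppt1, Lipa and Atp6v1c1) by at least 0.5 on the log2 scale. The 3 comparisons share the unstimulated arrays.

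**Figure D1:**
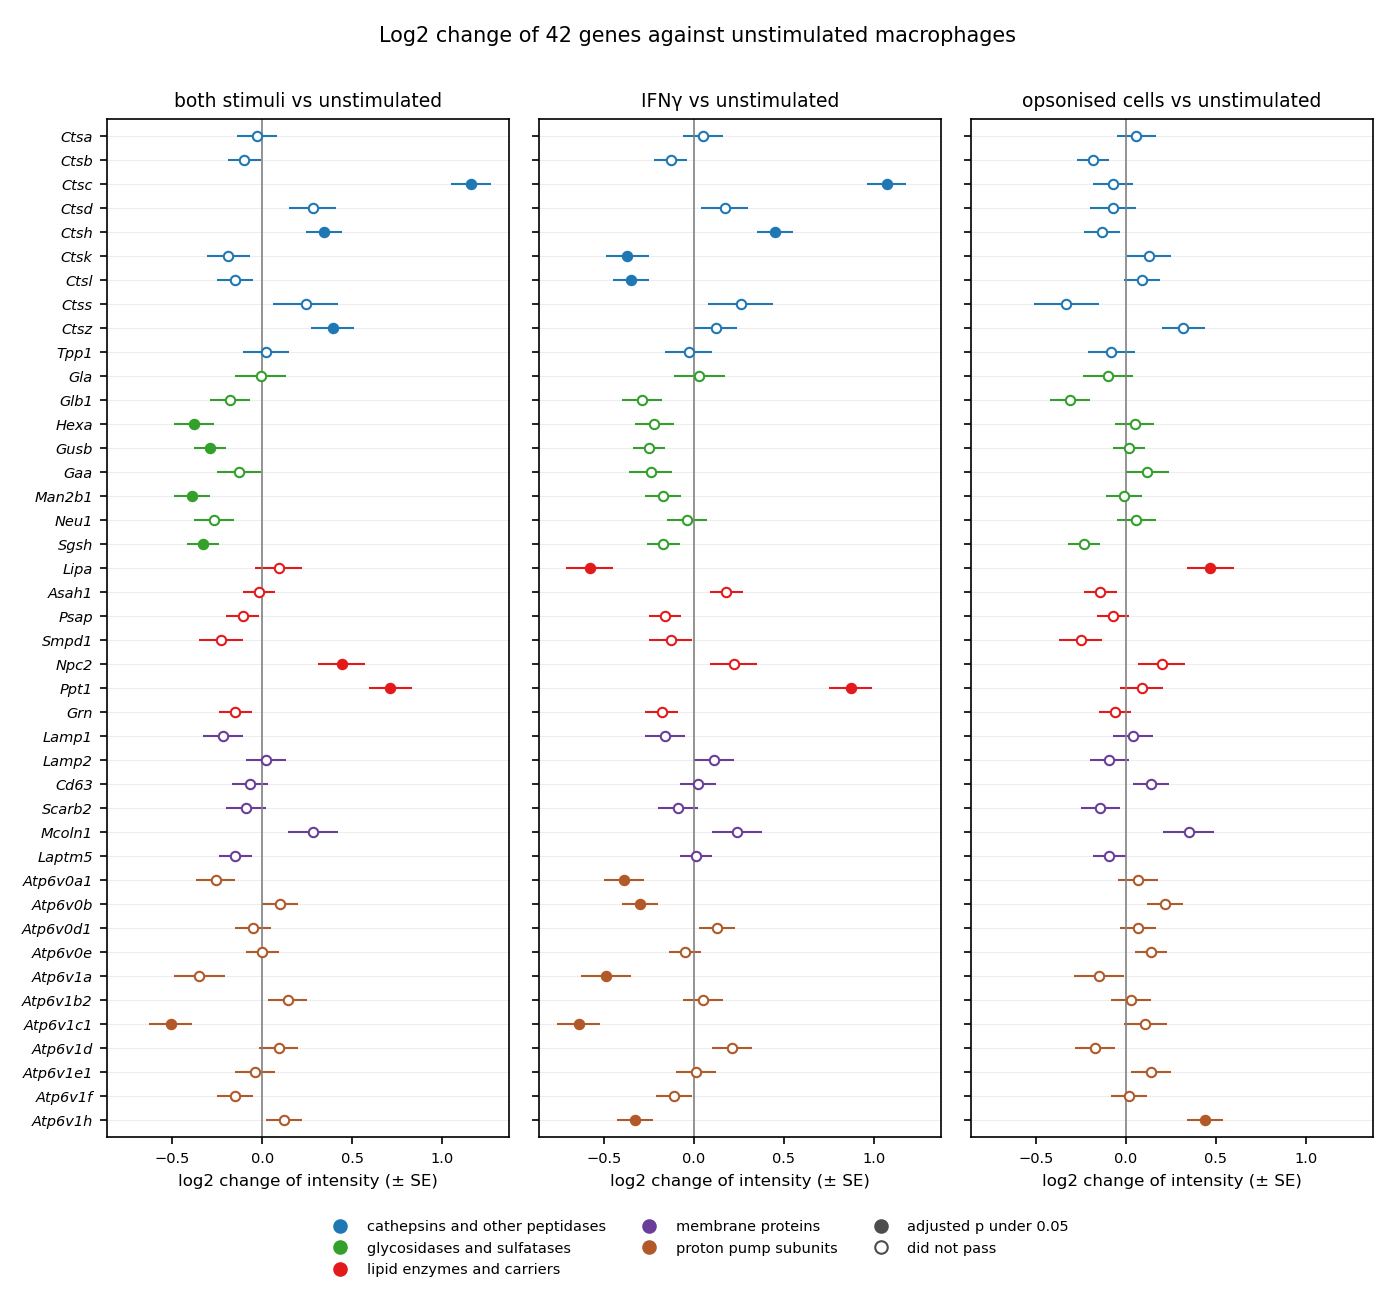
Log2 change of intensity (x axis, ± SE, 2 arrays per group) of the 42 tested genes (y axis, coloured by class) in the 3 stimulated groups against unstimulated macrophages. Filled points passed at an adjusted p under 0.05: 10 genes with the combination, 11 with IFNγ and 2 with opsonised cells; Ctsc, at 1.16 and 1.07, lies farthest from 0.

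Among the peptidases, the gene of cathepsin C, a dipeptidyl peptidase that activates granule serine proteases, rose the most. Ctsc had intensities of 13470.5 and 12969 with the combination, 12203 and 12682 with IFNγ and 6462 and 4930 with opsonised cells, against 5653 and 6172 in unstimulated cells. All 4 arrays with IFNγ lay above all 4 arrays without it, and the opsonised and unstimulated arrays overlapped. The log2 change was 1.16 ± 0.11 with the combination (2.24-fold, adjusted p = 8.53e-09) and 1.07 ± 0.11 with IFNγ (2.11-fold, adjusted p = 5.4e-08). The combination exceeded opsonised cells alone by 1.23 ± 0.11 (adjusted p = 5.74e-09). Its 3 probes agreed in direction, at 1.16 to 1.77 with the combination and 1.07 to 1.51 with IFNγ.

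Cathepsin H, an aminopeptidase, was also higher on the arrays with IFNγ. Ctsh had 7285 and 6462 with the combination, 7817 and 7065 with IFNγ and 5091 and 4848 with opsonised cells, against 5276 and 5573 in unstimulated cells. Again the arrays with IFNγ lay above all others. The log2 change was 0.34 ± 0.10 with the combination (adjusted p = 0.0106), 0.45 ± 0.10 with IFNγ (adjusted p = 0.0016) and 0.47 ± 0.10 for the combination over opsonised cells (adjusted p = 0.00102). Without IFNγ array 1 the change with IFNγ was 0.38 (adjusted p = 0.051), and without combination array 1 or unstimulated array 1 the change with the combination was 0.25 or 0.30 (adjusted p = 0.138 and 0.0857).

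Cathepsin S, the protease that trims the invariant chain in antigen-presenting cells, varied between arrays of one group. Ctss had 796 and 1170.0 with the combination, 809 and 1179 with IFNγ and 680 and 625 with opsonised cells, against 969 and 691 in unstimulated cells. The opsonised arrays lay below all others, and the other 3 groups overlapped. Only the combination over opsonised cells passed, at 0.57 ± 0.18 (adjusted p = 0.0183); without combination array 2 it was 0.29 (adjusted p = 0.312), without opsonised array 1 0.63 (adjusted p = 0.06) and without opsonised array 2 0.51 (adjusted p = 0.131). The changes against unstimulated cells were 0.24 with the combination, 0.26 with IFNγ and -0.33 with opsonised cells, none of which passed.

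Of the other peptidases, 2 fell with IFNγ. Cathepsin K, a collagen-degrading enzyme best known from osteoclasts, fell by 0.37 on the log2 scale (± 0.12, adjusted p = 0.0284), and the combination lay below opsonised cells by -0.32 (adjusted p = 0.0494). The summed intensity of the 6 osteoclast markers, Ctsk included, was 1352 to 1400.3 with the combination, 1337 to 1358 with IFNγ and 1512 to 1531 with opsonised cells, against 1419 to 1507 in unstimulated cells. Of these markers, the fusion genes Dcstamp and Ocstamp were above the floor on no array, and the part of such cells in the Ctsk values was not tested. Cathepsin L, a cysteine endopeptidase, was at least 1.15-fold lower (adjusted p = 0.00988): Ctsl was not above the floor on the IFNγ arrays (178 and 185), against 234 and 228 in unstimulated cells. Cathepsin Z, a carboxypeptidase, rose by 0.39 ± 0.12 with the combination (adjusted p = 0.0144). Its changes with IFNγ and opsonised cells were 0.12 and 0.32, which did not pass. The other Ctsz probe, of similar brightness, changed by 0.57 with the combination, 0.41 with IFNγ and 0.41 with opsonised cells. The aspartic protease gene Ctsd lay higher with the combination than with opsonised cells (0.35 ± 0.13, adjusted p = 0.0449). Ctsa, Ctsb and Tpp1 passed in no comparison, with changes against unstimulated cells of -0.18 to 0.06.

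Each of these smaller changes fell short in some fits with 1 array left out. Some estimates shrank there, and others stayed the same or grew. The Ctsk change with IFNγ was -0.40, -0.34 and -0.27 without IFNγ array 1, IFNγ array 2 and unstimulated array 2 (adjusted p = 0.0908, 0.171 and 0.265), and its difference from opsonised cells was lost without any one of the 8 arrays (adjusted p = 0.0514 to 0.251). The Ctsl call was lost without IFNγ array 1 or unstimulated array 1 (adjusted p = 0.092 and 0.068). The Ctsz change was 0.23 without combination array 2 and 0.24 without unstimulated array 2 (adjusted p = 0.247 and 0.232). The Ctsd difference was 0.28 and 0.42 without combination array 1 and array 2 (adjusted p = 0.216 and 0.0542), 0.35 without either IFNγ array (adjusted p = 0.0581 and 0.058) and 0.23 without opsonised array 2 (adjusted p = 0.297).

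**Figure D2:**
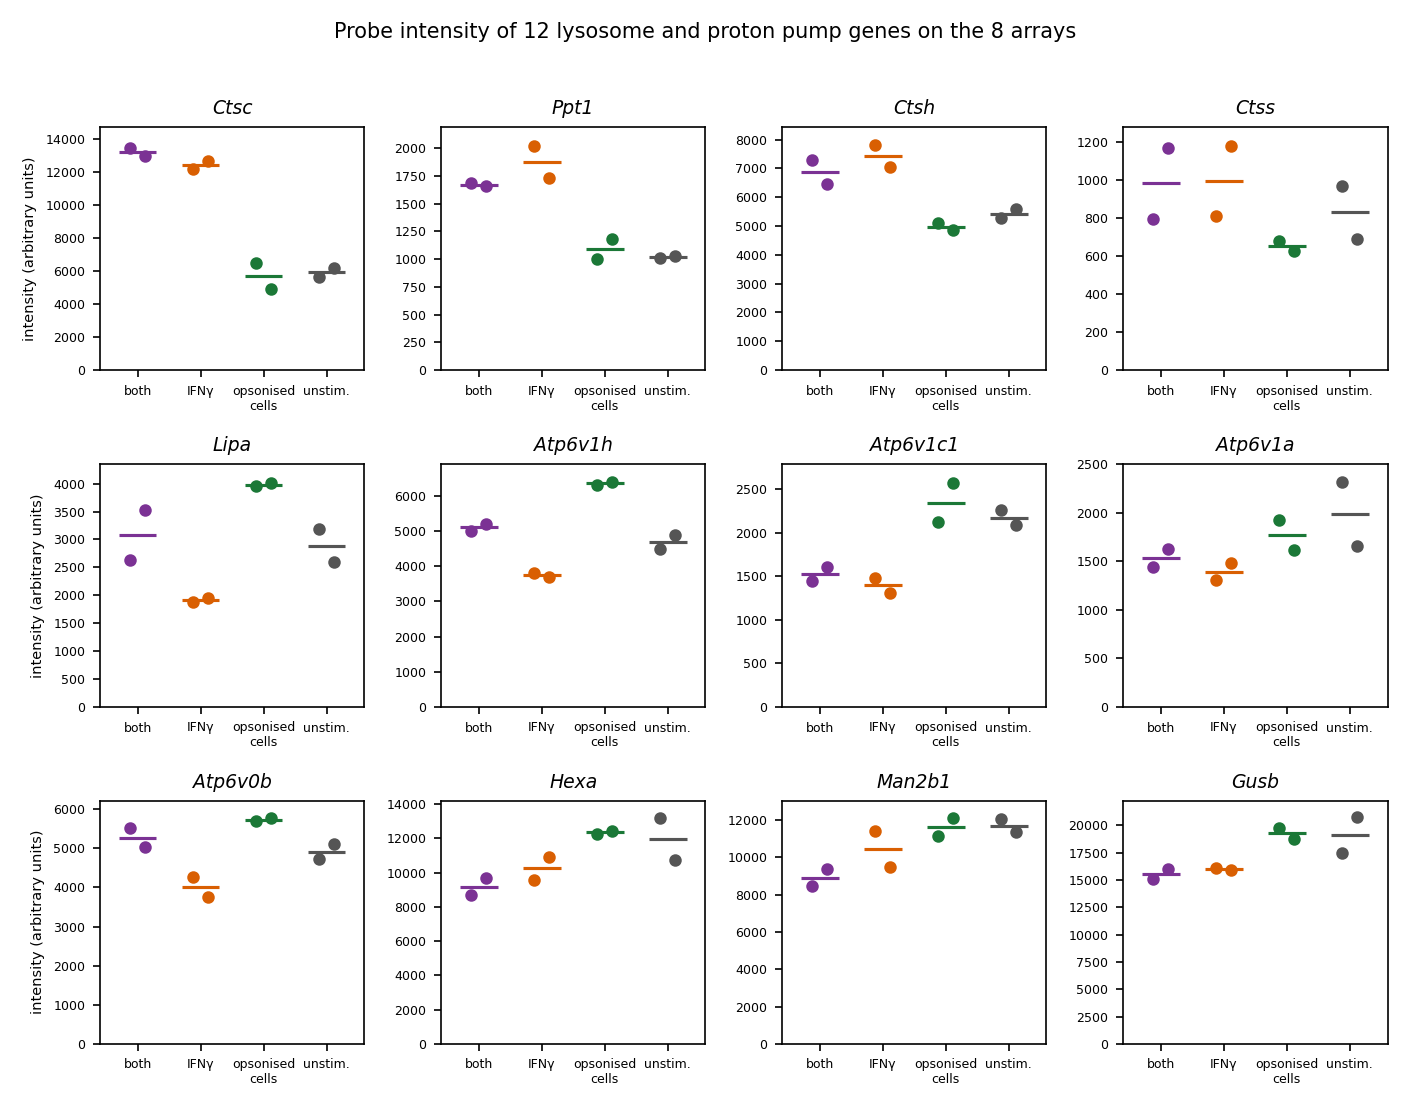
Intensity (y axis, arbitrary units, linear from 0) of 12 of the genes on each of the 8 arrays, by group (x axis); points are arrays and bars are means of 2 arrays. Ctsc, Ppt1 and Ctsh lay higher on the 4 arrays with IFNγ, Atp6v1c1 lay lower on them, and Lipa and Atp6v1h were highest with opsonised cells and lowest with IFNγ. The genes beyond Ctsc, Ppt1, Lipa and Atp6v1c1 were chosen for display after their values were seen.

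The enzymes that remove sugars and sulfate from glycans were lower or did not pass. With the combination, 4 of 8 tested genes fell and none rose, against 20.6% of all features lower and 14.5% higher. Of the 4, Sgsh was tested only because its unstimulated arrays lay above the floor, so it could hardly have been called higher. With either stimulus alone none of the 8 passed, against 21.8% of all features with IFNγ and 12.2% with opsonised cells. At an unadjusted p under 0.05, 4 were lower with IFNγ and 2 with opsonised cells, and none was higher. Hexa, the alpha subunit of beta-hexosaminidase, had 8688 and 9689 with the combination, 9592 and 10905 with IFNγ and 12254 and 12446 with opsonised cells, against 13183 and 10770.1 in unstimulated cells. Its combination arrays lay below those of the opsonised and the unstimulated group and overlapped the IFNγ arrays. It fell by 0.38 on the log2 scale with the combination (± 0.11, adjusted p = 0.00681). Gusb, beta-glucuronidase, had 15085 and 16009 with the combination, 16102 and 15890.5 with IFNγ and 19795 and 18756 with opsonised cells, against 17463 and 20728 in unstimulated cells. It fell by 0.29 (± 0.09, adjusted p = 0.0183), and its 3 probes agreed in direction (-0.29 to -0.55 with the combination, -0.25 to -0.48 with IFNγ). The lysosomal alpha-mannosidase gene Man2b1 fell by 0.39 (± 0.10, adjusted p = 0.00406). Sgsh, the sulfamidase of heparan sulfate breakdown, was at least 1.08-fold lower (adjusted p = 0.00689). Its combination arrays (169 and 176) were not above the floor, against 220 and 212 in unstimulated cells. Sgsh passed the filter only through those unstimulated arrays, so its direction was all but set beforehand and its p-value adds no support.

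Relative to opsonised cells alone, the combination lowered Hexa (-0.43, adjusted p = 0.00324), Gusb (-0.31, adjusted p = 0.0156), Man2b1 (-0.38, adjusted p = 0.00626) and the sialidase gene Neu1 (-0.33, adjusted p = 0.0273). Glb1 (beta-galactosidase), Gaa (acid alpha-glucosidase) and Gla (alpha-galactosidase A) passed in no comparison. These falls depended on the scaling. After cyclic loess between arrays, only Sgsh remained among those against unstimulated cells and only Hexa among those against opsonised cells. As Sgsh was tested only through its unstimulated arrays, its remaining call adds no support for a fall of these enzymes. Hexa, Gusb and Man2b1 then changed by -0.24, -0.16 and -0.26 with the combination (adjusted p = 0.0828, 0.215 and 0.0559). Without combination array 1, Hexa, Gusb and Man2b1 fell short in both comparisons, at -0.30, -0.25 and -0.32 against unstimulated cells (adjusted p = 0.0851, 0.113 and 0.0611) and -0.35, -0.27 and -0.31 against opsonised cells (adjusted p = 0.0511, 0.104 and 0.0824). Against unstimulated cells, Hexa was -0.23 and the Sgsh call was lost without unstimulated array 1 (adjusted p = 0.175 and 0.0509), and Gusb was -0.17 without unstimulated array 2 (adjusted p = 0.287). Against opsonised cells, Gusb was -0.27 without opsonised array 1 (adjusted p = 0.0865) and Man2b1 -0.32 without opsonised array 2 (adjusted p = 0.0604). Neu1 was -0.35, -0.31 and -0.21 without combination array 1, combination array 2 and opsonised array 1 (adjusted p = 0.0768, 0.12 and 0.222).

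Of the 7 tested lipid enzymes and carriers, Ppt1 rose and Lipa fell with IFNγ, and the other 5 did not pass there. Ppt1, which removes palmitate from modified proteins, had 1681 and 1656 with the combination, 2017 and 1726 with IFNγ and 1004 and 1178 with opsonised cells, against 1010.4 and 1026 in unstimulated cells. All arrays with IFNγ lay above all arrays without it, and the opsonised arrays spanned the unstimulated ones. The log2 change was 0.71 ± 0.12 with the combination (1.64-fold, adjusted p = 3.22e-05) and 0.87 ± 0.12 with IFNγ (1.83-fold, adjusted p = 3.62e-06). The combination lay above opsonised cells alone by 0.62 ± 0.12 (adjusted p = 0.00025).

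Lipa, the acid lipase that frees cholesterol and fatty acids from cholesteryl esters and triglycerides, changed in opposite directions with the single stimuli. It had 2633 and 3535 with the combination, 1874 and 1957 with IFNγ and 3962 and 4004 with opsonised cells, against 3185 and 2589 in unstimulated cells. The IFNγ arrays were the lowest and the opsonised arrays the highest of the 8, while the combination and unstimulated arrays overlapped. It fell by 0.58 on the log2 scale with IFNγ (± 0.13, adjusted p = 0.00129) and rose by 0.47 ± 0.13 with opsonised cells (1.39-fold, adjusted p = 0.0145). The combination lay above IFNγ by 0.67 ± 0.13 (adjusted p = 0.00052) and below opsonised cells by -0.38 (adjusted p = 0.0259), and its change against unstimulated cells was 0.09. After cyclic loess between arrays, the difference from opsonised cells was -0.28 and did not pass (adjusted p = 0.114). Without unstimulated array 1 the change with IFNγ was -0.44 (adjusted p = 0.0566). The change with opsonised cells was 0.48 and 0.46 without opsonised array 1 and array 2, and 0.32 without unstimulated array 2 (adjusted p = 0.0619, 0.0793 and 0.242). The difference between the combination and opsonised cells was -0.17 without combination array 1, -0.60 without combination array 2, and -0.39 and -0.38 without opsonised array 1 and array 2 (adjusted p = 0.427, 0.00277, 0.0828 and 0.0957).

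Npc2, a cholesterol-binding protein inside the lysosome, rose by 0.44 ± 0.13 with the combination (adjusted p = 0.00995). The change was 0.28 without combination array 2 and 0.27 without unstimulated array 2, and the call was lost in both fits. Asah1 (acid ceramidase), Psap (the saposin precursor), Smpd1 (acid sphingomyelinase) and Grn (progranulin) passed in no comparison, with changes against unstimulated cells of -0.25 to 0.18. Grn was counted in this class although progranulin is not a lipid enzyme. Psap reached the highest intensity of the deposited values, 35988.6, on opsonised array 1 and unstimulated array 1. In all, 7 of the 47 genes were read from probes among the 100 brightest. Whether changes are understated at such intensities was not tested.

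None of the 6 tested membrane protein genes passed in any comparison. These were Lamp1 and Lamp2 (the main glycoproteins of the lysosomal membrane), the tetraspanin gene Cd63, Scarb2 (a sorting receptor for glucocerebrosidase), Mcoln1 (a calcium release channel) and Laptm5. At an unadjusted p under 0.05, Mcoln1 was higher with the combination and with opsonised cells, and 2 genes, Lamp1 and Cd63, were lower with the combination than with opsonised cells. After centring on 6 housekeeping genes, these 2 differences passed. Those 6 genes were not all steady. Hprt was higher with the combination than with opsonised cells by 0.55 (adjusted p = 0.00212). Against unstimulated cells, Hprt changed by 0.74 with IFNγ and 0.77 with the combination, and Rpl13a by -0.53 and -0.52. Mcoln1 had 386 and 398 with the combination, 345 and 420 with IFNγ and 379 and 442 with opsonised cells, against 283 and 366 in unstimulated cells. Its change with opsonised cells was 0.35 (95% confidence interval 0.06 to 0.63, adjusted p = 0.109). Lamp1 had 18298 and 19276 with the combination, 20106 and 18919 with IFNγ and 19464 and 26039 with opsonised cells, against 22205 and 21510 in unstimulated cells, and its change with the combination was -0.22 (95% confidence interval -0.44 to 0.00). The 4 probes of Lamp2 did not agree in direction. Nor did the 3 probes of Cd63 for the combination against opsonised cells (-0.21 for the probe used, 0.05 and -0.38). Over all classes, the 95% intervals of the changes that did not pass against unstimulated cells had half-widths of 0.18 to 0.37 on the log2 scale (median 0.23).

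Of the 11 tested proton pump genes, 5 fell and none rose with IFNγ, against 12.3% of all features lower and 9.45% higher; after cyclic loess 2 of these falls remained, those of Atp6v1a and Atp6v1c1. They came from both sectors: Atp6v1a (the catalytic subunit A), Atp6v1c1 (subunit C, which links the sectors) and Atp6v1h (the regulatory subunit H) of V1, and Atp6v0a1 (subunit a) and Atp6v0b (a proteolipid) of V0. Atp6v1c1 changed the most, with 1442 and 1613 with the combination, 1483 and 1313 with IFNγ and 2123 and 2574 with opsonised cells, against 2258 and 2088 in unstimulated cells. All 4 arrays with IFNγ lay below all 4 without it. It fell by 0.51 on the log2 scale with the combination (± 0.12, adjusted p = 0.0015) and by 0.64 with IFNγ (± 0.12, adjusted p = 0.00026), and the combination lay below opsonised cells by -0.62 (adjusted p = 0.000302).

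Atp6v1h followed the pattern of Lipa. It had 5011 and 5193 with the combination, 3799 and 3682 with IFNγ and 6314 and 6386 with opsonised cells, against 4486 and 4893 in unstimulated cells. No 2 groups overlapped. It fell by 0.33 with IFNγ (± 0.10, adjusted p = 0.0181) and rose by 0.44 ± 0.10 with opsonised cells (adjusted p = 0.00345). The combination lay 0.45 above IFNγ (adjusted p = 0.00239) and -0.32 from opsonised cells (adjusted p = 0.0179), and its change against unstimulated cells was 0.12, which did not pass. After cyclic loess, the difference from opsonised cells was -0.21 and did not pass (adjusted p = 0.12). The change with IFNγ was -0.35, -0.30 and -0.26 without IFNγ array 1, IFNγ array 2 and unstimulated array 2 (adjusted p = 0.0759, 0.137 and 0.17). The change with opsonised cells was 0.38 without unstimulated array 1 (adjusted p = 0.0666). The difference from opsonised cells was -0.29, -0.34 and -0.31 without combination array 1, combination array 2 and opsonised array 2 (adjusted p = 0.105, 0.055 and 0.052).

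Atp6v1a had 1444 and 1632 with the combination, 1306 and 1482 with IFNγ and 1927 and 1612 with opsonised cells, against 2313 and 1660.2 in unstimulated cells. The unstimulated arrays differed more from each other than those of any other group of this gene. Its change with IFNγ was -0.49 ± 0.14 (adjusted p = 0.0107); without unstimulated array 1 it was -0.25 (adjusted p = 0.297) and without IFNγ array 1 -0.40 (adjusted p = 0.133). Atp6v0a1 fell by 0.39 with IFNγ (± 0.11, adjusted p = 0.0118), or by 0.36 and 0.31 without IFNγ array 2 and unstimulated array 1 (adjusted p = 0.111 and 0.146). It also lay lower with the combination than with opsonised cells (-0.33, adjusted p = 0.0297), or -0.24 and -0.21 without combination array 2 and opsonised array 2 (adjusted p = 0.243 and 0.242).

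Atp6v0b had 5519.7 and 5024 with the combination, 4254 and 3766 with IFNγ and 5693 and 5769 with opsonised cells, against 4714 and 5120.2 in unstimulated cells. The IFNγ arrays were the lowest and the opsonised arrays the highest. It fell by 0.30 with IFNγ (± 0.10, adjusted p = 0.0415), a change that was lost without any one of the IFNγ or unstimulated arrays (-0.38 and -0.21, and -0.36 and -0.24, adjusted p = 0.0506 to 0.353). The combination lay above IFNγ by 0.40 ± 0.10 (adjusted p = 0.00989), or by 0.33 and 0.31 without combination array 1 and IFNγ array 2 (adjusted p = 0.113 and 0.173). Atp6v0d1, Atp6v0e, Atp6v1b2, Atp6v1d, Atp6v1e1 and Atp6v1f passed in no comparison, with changes against unstimulated cells of -0.17 to 0.21, and the 4 probes of Atp6v0d1 did not agree in direction.

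**Figure D3:**
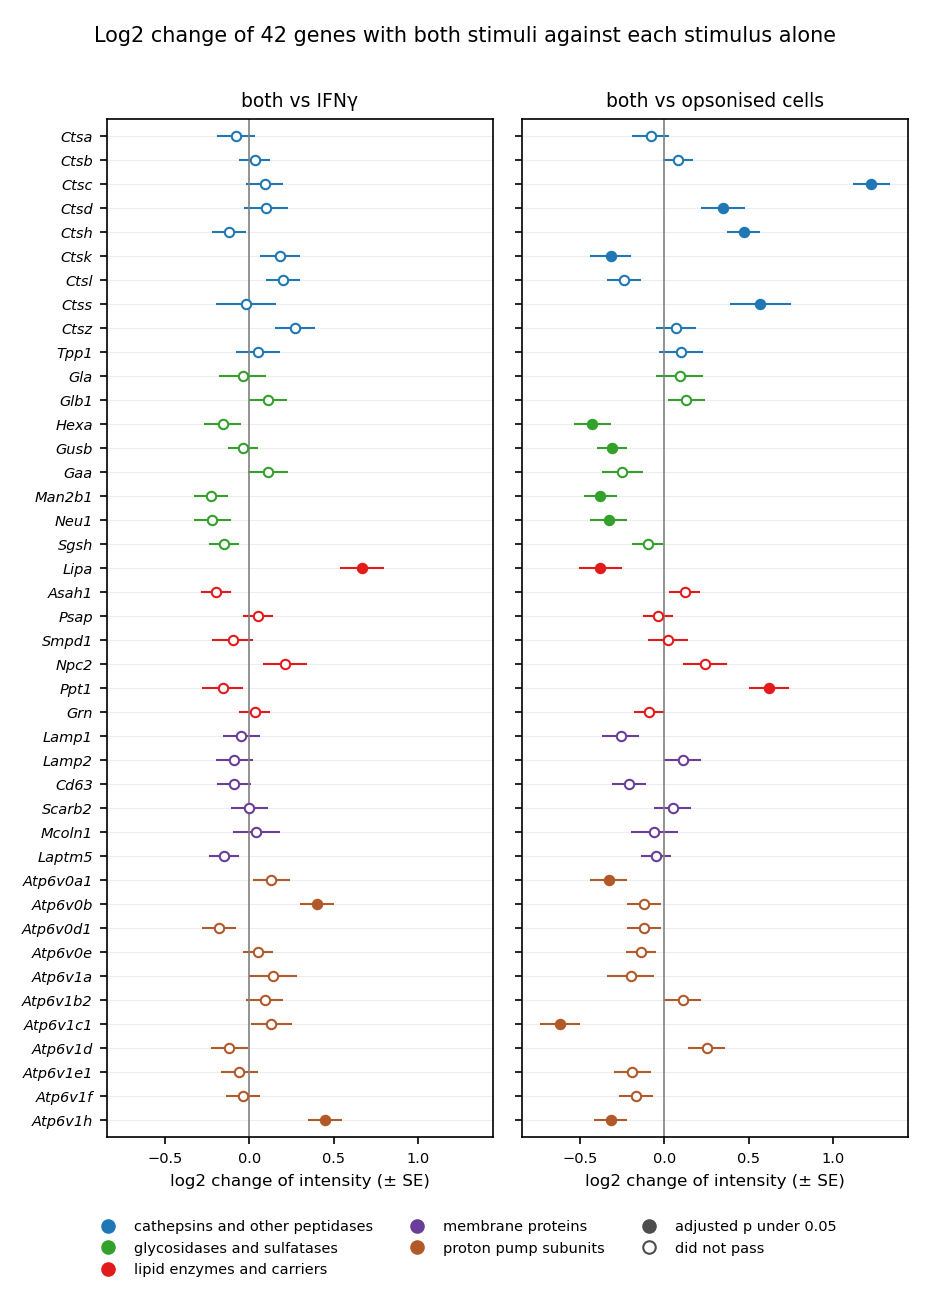
Log2 change of intensity (x axis, ± SE, 2 arrays per group) of the 42 genes (y axis, coloured by class) with the combination against IFNγ alone and against opsonised cells alone. Filled points passed at an adjusted p under 0.05: Lipa, Atp6v1h and Atp6v0b against IFNγ, all higher, and 14 genes against opsonised cells, 5 higher and 9 lower.

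Adding opsonised cells to IFNγ raised 3 of the 42 genes, Lipa, Atp6v0b and Atp6v1h, and lowered none (7.14%, against 13.9% of all features, 6.47% higher and 7.47% lower); at an unadjusted p under 0.05, 4 were higher and 2 lower. Adding IFNγ to opsonised cells raised 5 and lowered 9 (33.3%, against 27.6% of all features, 11.4% higher and 16.3% lower). The genes raised were Ctsc, Ctsd, Ctsh, Ctss and Ppt1. Those lowered were Ctsk, Hexa, Gusb, Man2b1, Neu1, Lipa, Atp6v0a1, Atp6v1c1 and Atp6v1h, of which only Hexa and Atp6v1c1 still passed after cyclic loess. After cyclic loess the split was 6 raised and 2 lowered, and after centring on housekeeping genes 4 raised and 12 lowered; without combination array 1 or 2, or opsonised array 2, 7, 9 or 8 genes passed in place of 14. The corresponding splits were 4 and 4 for IFNγ and 6 and 2 for the combination against unstimulated cells after cyclic loess, and 3 and 7 and 4 and 6 after centring. With IFNγ alone, 5 genes passed without IFNγ array 1, 7 without IFNγ array 2 and 7 without unstimulated array 1, in place of 11. With opsonised cells alone, only Lipa passed without unstimulated array 1.

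The interaction, which is the log2 change by opsonised cells with IFNγ minus that without it, passed for none of the 42 genes by limma, against 2.43% of all features (1.12% positive and 1.31% negative), and 1 gene had an unadjusted p under 0.05. That gene was Glb1, at 0.42 ± 0.16 (unadjusted p = 0.0147, adjusted p = 0.197). Estimates ran from -0.30 to 0.42, with 95% intervals that reached -0.70 at the low end and 0.83 at the high end. For Lipa and Atp6v1h the interaction was 0.20 and 0.01.

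Further genes of the pathway were drawn from a list of 116, of which 101 had a probe and 78 were tested. With the combination 8 rose and 16 fell, with IFNγ 8 rose and 12 fell, and with opsonised cells 5 rose and 6 fell; the shares of 30.8%, 25.6% and 14.1% compare with 35.1%, 21.8% and 12.2% of all features. Among the 20 that passed with a change of at least 0.5, the channels and transporters of the lysosomal membrane moved in both directions.

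Clcn7, the chloride-proton exchanger of lysosomes, rose in all 3 comparisons. It had 5327 and 5053 with the combination, 4151 and 4423 with IFNγ and 2579.8 and 2594 with opsonised cells, against 1906 and 1917 in unstimulated cells, and no 2 groups overlapped. The log2 change was 1.44 ± 0.10 with the combination, 1.16 ± 0.10 with IFNγ and 0.44 with opsonised cells (adjusted p = 4.37e-11, 3.1e-09 and 0.00455). Mcoln2, a cation channel related to Mcoln1, had 2951 and 2867 with the combination, 723 and 772 with IFNγ and 2892 and 2653 with opsonised cells, against 943 and 766 in unstimulated cells. Only the arrays with opsonised cells were high, with changes of 1.78 with the combination and 1.71 with opsonised cells (adjusted p = 1.56e-11 and 2.09e-10). Slc11a1, the phagosomal metal transporter Nramp1, rose by 0.58 with opsonised cells (adjusted p = 0.000395), or by 0.98 over the mean of all its probes, as did Tcirg1, a V-ATPase a subunit, by 0.58 (adjusted p = 0.000469). Another a subunit, Atp6v0a2, rose by 0.56 with the combination (adjusted p = 0.000522), and the lysosomal membrane gene Tmem192 rose by 0.63 with the combination and 0.53 with IFNγ.

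The genes of the TPC cation channels fell. Tpcn1 had 881 and 1042 with the combination, 1512 and 1476 with IFNγ and 1827 and 1660.2 with opsonised cells, against 3027 and 3244 in unstimulated cells. No 2 groups overlapped, and the changes were -1.71, -1.07 and -0.85 (adjusted p = 1.8e-11, 1.03e-07 and 1.1e-05), or -0.78, -0.62 and -0.36 over the mean of its probes. Tpcn2 fell by 0.95 with the combination and by 0.71 with IFNγ. The exporters of cystine and of sialic acid, Ctns and Slc17a5, fell by 0.73 and 0.94 with the combination and by 0.61 and 0.51 with IFNγ; the last was -0.46 without IFNγ array 2 (adjusted p = 0.0528). The nucleoside transporter gene Slc29a3 fell by 0.58 with the combination.

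Among other hydrolases, the hyaluronidase gene Hyal1 had 252 and 283 with the combination, 341 and 388 with IFNγ and 434 and 433 with opsonised cells, against 639.5 and 705 in unstimulated cells. The groups followed one another without overlap, and the changes were -1.33, -0.89 and -0.63 (adjusted p = 4.85e-09, 5.29e-06 and 0.000823). Hyal2 fell by 0.74 with the combination and by 0.65 with IFNγ. Lgmn, the asparaginyl endopeptidase, fell by 0.66 with the combination (adjusted p = 9.79e-06), and Pla2g15, a lysosomal phospholipase, rose by 0.55 with IFNγ (adjusted p = 0.000196). Naglu, an enzyme of heparan sulfate breakdown, fell by 0.57 with opsonised cells (adjusted p = 0.00404), or by 0.46 and 0.45 without opsonised array 2 and unstimulated array 1 (adjusted p = 0.0738 and 0.0995). Gnpda1, on the list although its glucosamine-6-phosphate deaminase is cytosolic, fell by 1.43, 0.98 and 0.73 with the combination, IFNγ and opsonised cells.

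Cst7, the gene of cystatin F, an endolysosomal inhibitor of cysteine proteases that include cathepsin C, rose the most among these genes. It had 1629 and 1422 with the combination, 640.1 and 531 with IFNγ and 320.2 and 278 with opsonised cells, against 274 and 257 in unstimulated cells. The combination arrays lay above the IFNγ arrays, which lay above the rest. The change was 2.52 with the combination and 1.14 ± 0.13 with IFNγ (adjusted p = 1.36e-13 and 2.91e-07). Sort1, the sorting receptor sortilin, had 1187 and 1107 with the combination, 1188 and 1225 with IFNγ and 3535 and 3278 with opsonised cells, against 2245 and 1938 in unstimulated cells. It fell by 0.86 with the combination and by 0.79 with IFNγ and rose by 0.71 with opsonised cells, but over the mean of its probes the changes were -0.44, -0.52 and 0.28, the last not passing (adjusted p = 0.0546). Flcn, a lysosomal regulator of the TFE transcription factors, fell by 1.05, 0.66 and 0.58 with the combination, IFNγ and opsonised cells. Tfe3 did not pass (0.14, -0.07 and 0.14 in the same order), and Tfeb and Mitf were not tested because their probes were too dim.

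**Figure D4:**
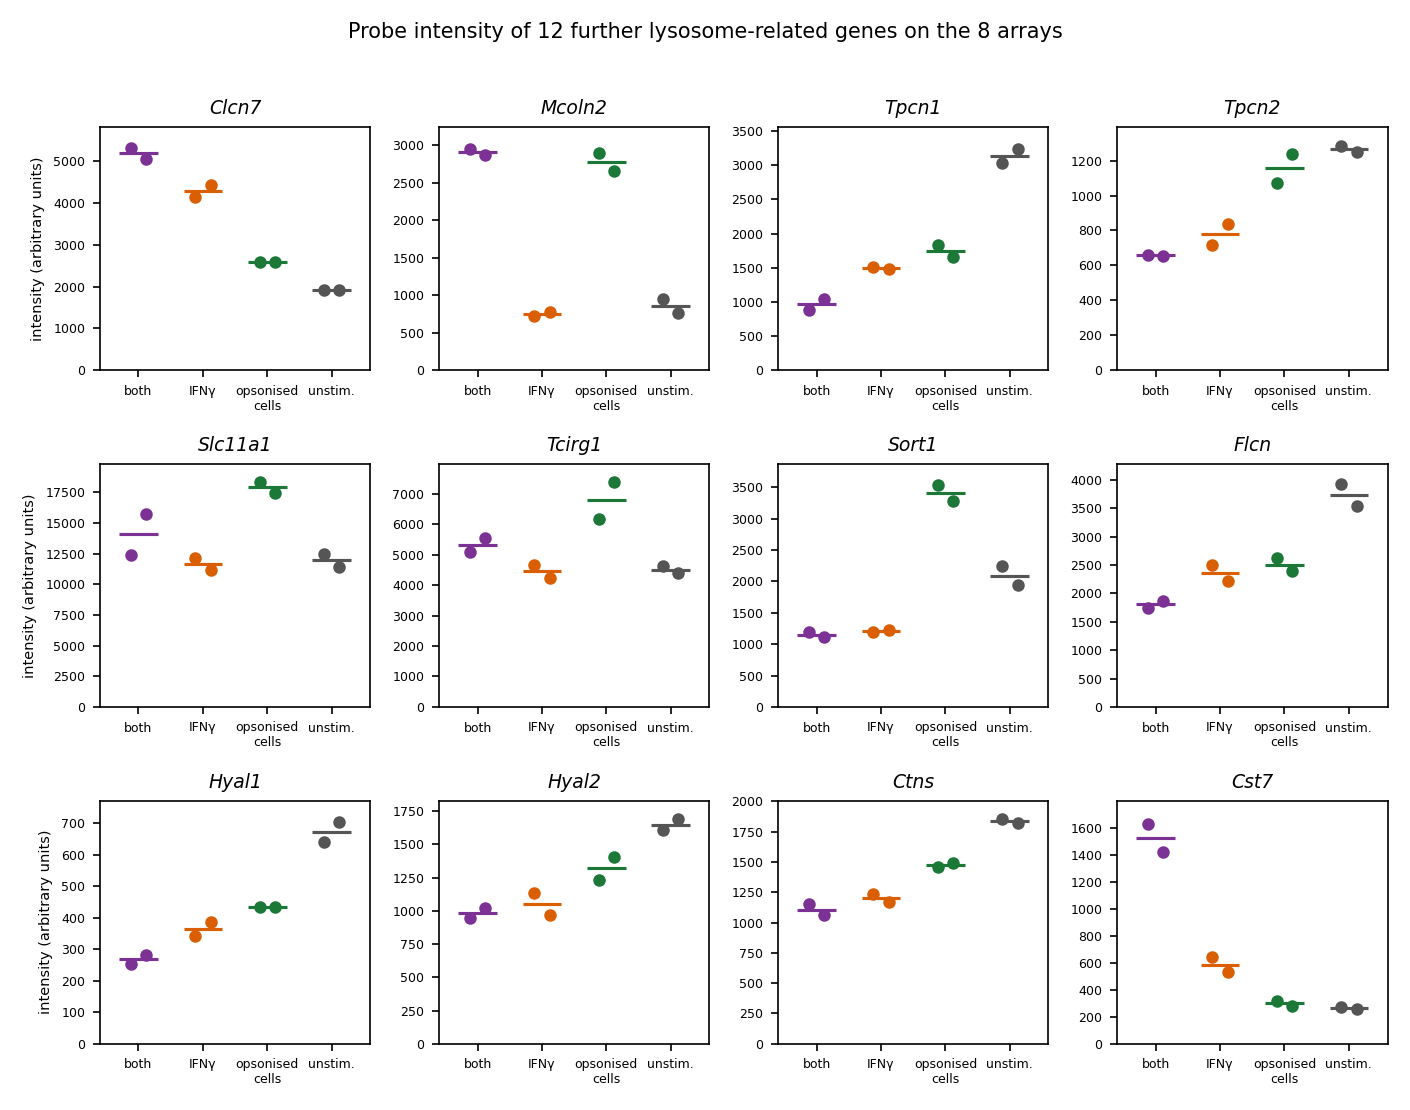
Intensity (y axis, arbitrary units, linear from 0) of 12 further lysosome-related genes on each of the 8 arrays, by group (x axis); points are arrays and bars are means of 2 arrays. Clcn7 and Cst7 were highest with the combination, Mcoln2 was high on the 4 arrays with opsonised cells, and Tpcn1, Hyal1 and Flcn were highest in unstimulated cells.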

How the data were processed

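Macrophage RNA was amplified, labelled with biotin and hybridised to Illumina MouseRef-8 arrays, per the labels' protocols. The authors deposited probe intensity values on a linear scale, for which the submitters' processing notes name GenomeStudio. Which version and normalization they used is not given in the sources used here. Sorted, the 8 arrays differed by at most 0.961% at any rank, as after quantile normalization. The lowest deposited intensity was 119.8, so a base signal remained in the values and changes of dim genes are likely understated. Whether this was background left unsubtracted was not tested. A second deposited table was not used, because its 16 per-sample columns match no sample's labels.

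Probes were kept above a floor (the commonest log2 value plus 1.64 times the root mean square of values below it, an intensity of 200.1) on both arrays of at least 1 group, which left 12316 of 25697 probes (47.9%). Gene symbols came from the platform annotation (1 symbol for 23978 probes, none for 1719), and the brightest probe by its mean over 8 arrays stood for a gene, giving 9341 features. limma 3.58.1 in R 4.3.3 fitted 4 group means to log2 intensity (lmFit, eBayes with trend, 4 residual degrees of freedom, 22.7 in total), with Benjamini-Hochberg adjustment over all features. Values after ± are standard errors of the log2 change, with 2 arrays per group. Where every array of a group lay at or below the floor, "at least" marks a fold computed from the bright group's mean and, on the dim side, the floor or the signal itself if that was higher. On simulated data for the comparison of IFNγ with unstimulated cells (9341 features), the test recovered 54 of 100 changes of 0.5 and 97 of 100 of 1 on the log2 scale, and called 5 unchanged features. No other features were changed there, a far smaller share than the 21.8% called in the real comparison. The adjustment depends on that share, so these figures do not give the recovery in the real data.

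The 47 genes, the further lists and the tests were chosen with earlier results of these data known. Array values are given for members that passed with a change of at least 0.5 against unstimulated cells; further members shown by array were chosen after their values were seen. Other pathway genes are named where they passed with a change of at least 0.5 against unstimulated cells, except Tfe3, Tfeb, Mitf, Acp2 and the macrophage markers, also chosen after their values were seen. Alternatives covered the scaling, background, filter, probe choice, trend, replicate block and each array left out; where this left 1 array in a group, it was assumed to vary like the others. Sequences are RefSeq promoter windows (GRCm38.p6).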

Additional observations from a re-analysis of the deposited data

Results flagged for a closer look

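None of the 42 lysosome and proton pump genes had an effect of opsonised cells that differed between cells with and without IFNγ by limma's interaction test. Of the 78 further pathway genes, 4 had one (5.13%, against 2.43% of all features), 2 in each direction. The log2 change by opsonised cells with IFNγ minus that without it was 1.22 ± 0.18 for Cst7 (1.38 with IFNγ and 0.17 without, adjusted p = 0.00024) and 0.63 ± 0.16 for the acid phosphatase gene Acp2 (0.46 and -0.17, adjusted p = 0.028). It was -0.78 ± 0.16 for Sort1 (-0.07 and 0.71, adjusted p = 0.00649) and -0.61 ± 0.16 for Slc29a3 (-0.79 and -0.19, adjusted p = 0.0401). Of the genes used to check the stimuli, Hmox1 differed by 1.21 ± 0.14 (4.61 and 3.40, adjusted p = 7.15e-06) and Gbp2 by -1.18 ± 0.14 (0.08 and 1.26, adjusted p = 1.13e-05). Against unstimulated cells, Hmox1 changed by -1.34 with IFNγ alone and by 3.27 with the combination, beside 3.40 with opsonised cells. The interaction of the macrophage marker Mertk was 0.98 ± 0.16 (0.46 and -0.51, adjusted p = 0.000679). The Sort1 and Gbp2 interactions fell short over the mean of all probes (-0.21 and -0.49, adjusted p = 0.467 and 0.0985), and that of Sort1 also without unstimulated array 2 (-0.67, adjusted p = 0.0677). The Slc29a3 interaction fell short without combination array 2, either IFNγ array, opsonised array 2 or unstimulated array 2 (-0.54, -0.61, -0.61, -0.56 and -0.50, adjusted p = 0.113 to 0.206) and with no filter on dim probes (adjusted p = 0.0741). The Acp2 interaction held without opsonised array 2 but fell short without any other single array (0.53 to 0.69, adjusted p = 0.0544 to 0.15), after centring on 6 housekeeping genes (0.57, adjusted p = 0.0926) and with no filter on dim probes (adjusted p = 0.0507).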

How the results depend on the processing

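Over 16 alternatives no called change of the 42 genes reversed, and 12 of the 40 calls, in 6 genes, held in each: Ctsc, Ppt1 and Atp6v1c1 in all 3 of their comparisons, Ctsh in the combination against opsonised cells, and Lipa and Atp6v1h in the combination against IFNγ. The scaling moved the most among the settings that kept all arrays: cyclic loess kept 26 of 40 calls and gave 8 genes in place of 14 for the combination against opsonised cells. For the combination against unstimulated cells, 8 genes passed after cyclic loess and 12 over the mean of all probes, in place of 10. That count also moved in both directions with the array left out. Leaving out 1 array at a time gave 5 to 12 of these genes with IFNγ, 1 to 2 with opsonised cells and 7 to 13 for the combination against opsonised cells. Over all features it gave 1300 to 2142 calls with IFNγ (2036 with all arrays), 658 to 1176 with opsonised cells (1143), 726 to 1408 for the combination against IFNγ (1302) and 101 to 242 interactions (227). Over all features, cyclic loess gave 1008 higher and 835 lower calls with IFNγ (883 and 1153 as reported) and 1615 and 1530 with the combination (1357 and 1923); centring on 6 housekeeping genes gave 555 and 365 with opsonised cells (567 and 576), 770 and 1921 for the combination against opsonised cells (1061 and 1520) and 71 and 156 interactions (105 and 122). The replicate number as a block gave 10, 2 and 10 of these genes with IFNγ, opsonised cells and the combination, 3 and 13 against the single stimuli and 0 interactions; same-numbered arrays did not deviate together (correlations of -0.039 to 0.044), and the Ctsk difference from opsonised cells and the Atp6v0b fall with IFNγ were lost (adjusted p = 0.056 and 0.05). Dim signal limits Ctsl and Sgsh, whose changes are given as bounds only. Sgsh was also kept by the filter only through its unstimulated arrays.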
